A study of Mus musculus with 25 samples.

Results

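The genes described here write, assist or read methylation of lysine 9 of histone H3 (H3K9), and their RNA was followed in mouse preimplantation embryos. The set holds 10 genes taken by symbol from expression tables of 24708 gene loci in 11 libraries, and each symbol had 1 locus in the tables. Setdb1, Suv39h1, Suv39h2, Ehmt1 and Ehmt2 encode the methyltransferases, Trim28 and Atf7ip encode co-factors of Setdb1, and Cbx1, Cbx3 and Cbx5 encode the heterochromatin protein 1 (HP1) family. The value used is FPKM, fragments scaled by transcript length and by the mapped fragments of the library. Levels are set side by side between genes on that scale, but a trend with length remained between stages. Its removal took the all-loci median log2 fold change from 0.88 to 0.11. Lengths implied by the deposited bounds were 2574 bases for Cbx1, 3981 for Cbx3 and 19398 for Cbx5. Shares, orders and ratios between genes are therefore descriptions.

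Methylation of H3K9 marks silenced chromatin. Suv39h1 and Suv39h2 trimethylate H3K9 at pericentromeric repeats, Ehmt2 (G9a) and Ehmt1 (GLP) act as a pair that mainly dimethylates H3K9 in euchromatin, and Setdb1 trimethylates it at retrotransposons and imprinted regions where Trim28 (KAP1) brings it through KRAB zinc finger proteins. Atf7ip (MCAF1) binds Setdb1 and keeps it stable and in the nucleus. The HP1 proteins, Cbx5 (HP1 alpha), Cbx1 (HP1 beta) and Cbx3 (HP1 gamma), bind methylated H3K9 through their chromodomain. In the mouse embryo much of this machinery is first supplied by the egg, and the embryo's own genome takes over transcription around the 2-cell stage.

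All embryos were of the BDF1 strain. The blastocysts, at embryonic day 4.0, carried the genotype label Fzr1-OE (3 libraries) or Control (2 libraries). The 2-cell embryos, at embryonic day 1.5, were labelled sIVF, IVF or WT (2 libraries each). Fzr1 encodes the Cdh1 activator of the anaphase-promoting complex, OE is read here as overexpression, and IVF as in vitro fertilization. The labels do not expand sIVF, do not say how Fzr1 was raised or what the Control embryos received, and give neither the number of embryos in a library nor whether libraries came from separate collections, so p-values measure the spread between libraries, which may be technical. Each library is bulk RNA, in which fewer cells of a type and less RNA per cell cannot be told apart. The H3K9me3 libraries of the blastocysts were not analysed here.

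The reads behind each library, as implied by the deposited confidence bounds, came to 9324167 to 10483442 fragments in blastocysts and 4742698 to 6377606 fragments in 2-cell embryos, and no libraries held identical values. Summed levels of 6 trophectoderm markers were 3456 to 3538 FPKM in the Fzr1-OE libraries, 5526 to 5562 FPKM in the Control libraries and 9.55 to 22.8 FPKM in the 2-cell libraries. Krt8 and Krt18 made up most of the blastocyst sums. Summed oocyte-derived markers were 0.305 to 2.46 FPKM in blastocysts and 96.3 to 218 FPKM in 2-cell embryos. Of the 5 2-cell markers with values, 3 (Zscan4c, Zscan4d and Zscan4f) were listed at 0 in every blastocyst library. Obox6 had 10.2 to 14.6 FPKM in Fzr1-OE blastocysts, 4.13 to 6.41 FPKM in Control blastocysts and 246 to 473 FPKM in 2-cell embryos. Tdpoz4 was at 0 in Control blastocysts but at 6.21 to 6.89 FPKM in Fzr1-OE, against 0 to 13.4 FPKM in 2-cell embryos. All 7 cumulus and granulosa cell markers were at 0 in blastocysts, and 5 of the 7 were at 0 in every 2-cell library, with sums up to 3.92 FPKM. Fzr1 itself stood at 12.7, 15.5 and 17.1 FPKM in the libraries labelled Fzr1-OE, against 16.5 and 16.5 FPKM in the Control libraries (log2 fold change −0.13, SE 0.16, limma adjusted p = 0.713). The RNA level therefore does not separate these labels, and the blastocyst groups are named below by label only.

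The start regions of the HP1 genes are shown because Cbx3 and Cbx1 moved in opposite directions with stage and Cbx5 moved with Cbx1. RefSeq windows of 300 bases, 250 before to 50 after an annotated start on GRCm38.p6, were matched for 10 of the 10 genes and gave 14 windows. They are printed 5′ to 3′ on the gene's strand in lower case, with the GC box GGGCGG, read on both strands, in capitals. The Cbx1 window lies at chr11:96788885-96789184 (plus strand), the Cbx3 windows at chr6:51470366-51470665 and chr6:51471002-51471301 (plus strand), and the Cbx5 window, the one of its 2 with more CpG, at chr15:103239803-103240102 (minus strand).
Cbx1: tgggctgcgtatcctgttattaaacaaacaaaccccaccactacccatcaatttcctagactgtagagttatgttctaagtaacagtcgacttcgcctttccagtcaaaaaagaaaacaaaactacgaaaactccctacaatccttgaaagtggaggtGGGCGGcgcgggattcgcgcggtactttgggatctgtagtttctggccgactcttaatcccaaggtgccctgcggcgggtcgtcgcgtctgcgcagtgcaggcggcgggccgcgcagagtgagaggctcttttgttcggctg
Cbx3 first start: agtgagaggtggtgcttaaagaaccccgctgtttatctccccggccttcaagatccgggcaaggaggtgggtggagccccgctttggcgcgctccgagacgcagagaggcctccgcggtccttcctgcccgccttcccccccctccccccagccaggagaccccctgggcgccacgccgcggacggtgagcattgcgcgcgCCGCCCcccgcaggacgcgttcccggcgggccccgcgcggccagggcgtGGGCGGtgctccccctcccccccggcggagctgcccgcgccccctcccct
Cbx3 second start: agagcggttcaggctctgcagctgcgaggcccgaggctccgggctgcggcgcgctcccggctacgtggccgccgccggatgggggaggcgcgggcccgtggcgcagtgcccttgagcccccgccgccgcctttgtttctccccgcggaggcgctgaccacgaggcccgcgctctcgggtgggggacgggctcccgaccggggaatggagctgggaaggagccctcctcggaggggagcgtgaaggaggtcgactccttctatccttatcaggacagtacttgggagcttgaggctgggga
Cbx5: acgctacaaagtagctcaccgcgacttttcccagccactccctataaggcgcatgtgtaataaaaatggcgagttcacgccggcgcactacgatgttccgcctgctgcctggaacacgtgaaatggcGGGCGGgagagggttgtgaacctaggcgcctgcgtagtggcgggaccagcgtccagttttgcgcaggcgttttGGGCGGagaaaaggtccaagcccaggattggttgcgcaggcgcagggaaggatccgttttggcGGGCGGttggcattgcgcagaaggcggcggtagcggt
The Cbx1 window had 22 CpG dinucleotides and 52.7% G or C, the first Cbx3 window 34 CpG and 75.3%, the second Cbx3 window 32 CpG and 71.7%, and the Cbx5 window 29 CpG and 60.3%. The median of all 32851 windows was 7 CpG.

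A GC box was found in 13 of the 14 windows of the 10 genes and in 35.7% of all 32851 windows. The window without one was that of the second Cbx3 start. TATAAA was in 0 of the 14 windows and in 13.6% of all, CCAAT in 4 of the 14 and in 37.4% of all, and the NRF1 core TGCGCA in 6 of the 14 and in 7.76% of all, each searched on both strands. The homeobox core GGATTA was in 1 of the 14 windows, that of Cbx1, and in 7.06% of all.

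Cbx3 was the leading HP1 transcript of 2-cell embryos and far lower in blastocysts, while Cbx1 and Cbx5 were higher in blastocysts, Cbx5 with a call that was lost under quantile normalization and upper-quartile scaling. Of the methyltransferases, Ehmt2 was higher and Ehmt1 lower in blastocysts, and the co-repressor Trim28 was higher. The comparison set the 2 Control blastocyst libraries against the 2 WT 2-cell libraries, in a limma model of all 11 libraries on log2(FPKM + 1). Of the 10 genes, 6 passed an adjusted p of 0.05 over 9762 loci (Benjamini-Hochberg), against 65.4% of all loci tested. The 4 that were higher stand beside 45.8% of all loci, and the 2 that were lower beside 19.6%. Ehmt2, counted as higher, was near 0 in WT 2-cell embryos, so its count is a description. The groups did not overlap for 8 of the 10 genes, against 82.5% of all loci, so counts of this size are near the background of the stage comparison. The median log2 fold change was 0.63 over the 10 genes and 0.88 over all loci.

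**Figure D1:**
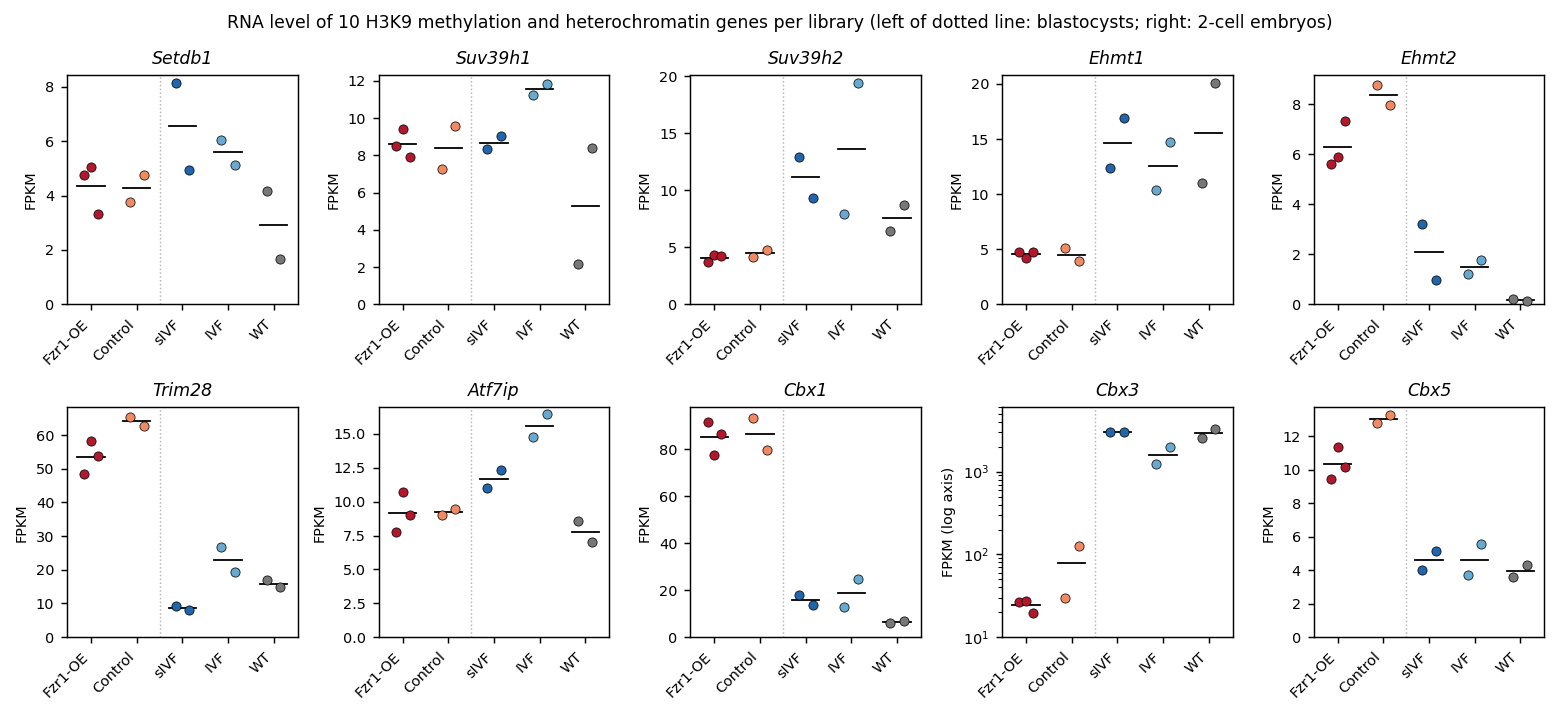
Level of each of the 10 genes in each of the 11 libraries (FPKM, on a linear axis from 0, and on a log axis for Cbx3), with a point per library and a bar at the group mean, in the order Fzr1-OE, Control, sIVF, IVF and WT. Cbx3 lies between 1229 and 3272 FPKM in the 2-cell libraries and between 19.8 and 127 FPKM in the blastocyst libraries.

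Cbx3 (mm9 chr6:51420615-51433703) encodes HP1 gamma. Its level was 30.1 and 127 FPKM in Control blastocysts, against 2575 and 3272 FPKM in WT 2-cell embryos. Every blastocyst library was below every 2-cell library, and the log2 fold change was −5.52 (SE 0.54, limma adjusted p = 3.04e-05), a mean 37.1-fold lower. The Control libraries differed 4.23-fold, and the log2 fold change was −4.50 without Control replicate 1 and −6.54 without Control replicate 2. Ranked by FPKM within a library, Cbx3 was at rank 4 to 24 in the 2-cell libraries and at rank 779 to 3135 in the blastocyst libraries. It took 0.533% to 1.42% of all implied fragments in 2-cell embryos and 0.00566% to 0.0374% in blastocysts. RefSeq names 6 Cbx3 pseudogenes, of which 0 have a row in the tables, so reads shared with them are uncertain.

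Cbx1 (mm9 chr11:96650450-96669954) encodes HP1 beta. Its level was 93.5 and 79.7 FPKM in Control blastocysts, against 6.02 and 6.93 FPKM in WT 2-cell embryos. The groups lay far apart, with a difference of 3.55 on the log2 scale (SE 0.30, limma adjusted p = 1.35e-05) and means that differed 13.4-fold. The locus of the predicted gene Gm11517 overlaps that of Cbx1 and ran the other way, at 10.2 to 25.9 FPKM in blastocysts and 183 to 512 FPKM in 2-cell embryos. Whether counting used strand is not given in the sources used here, so reads of the pair cannot be told apart.

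Cbx5 (mm9 chr15:103021977-103070247) encodes HP1 alpha. It had 12.8 and 13.2 FPKM in Control blastocysts, against 3.59 and 4.28 FPKM in WT 2-cell embryos. Both blastocyst libraries were higher, at 1.51 on the log2 scale (SE 0.26, limma adjusted p = 9.55e-04), a difference that fell to 0.69 under quantile normalization (adjusted p = 0.0706) and 0.68 under upper-quartile scaling (adjusted p = 0.0721). With the length trend removed it was 1.94 (limma adjusted p = 3.01e-04).

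The share of each HP1 transcript differed by stage. Cbx3 made up 17.0% to 23.7% of the summed HP1 FPKM in blastocysts labelled Fzr1-OE, 22.1% and 57.8% in the Control blastocysts, and 98.5% to 99.7% in the 2-cell libraries. Cbx1 made up 66.5% to 74.3% in blastocysts labelled Fzr1-OE, 68.6% and 36.2% in Control blastocysts, and at most 1.25% in 2-cell embryos. Cbx1 was above Cbx3 in all 3 Fzr1-OE libraries and in Control replicate 1, but below it in Control replicate 2. The summed HP1 level was 116 to 220 FPKM in blastocysts and 1245 to 3283 FPKM in 2-cell embryos. Cbx1 and Cbx5 together ran the other way, at 88.9 to 106 FPKM in blastocysts and 9.61 to 30.4 FPKM in 2-cell embryos.

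**Figure D2:**
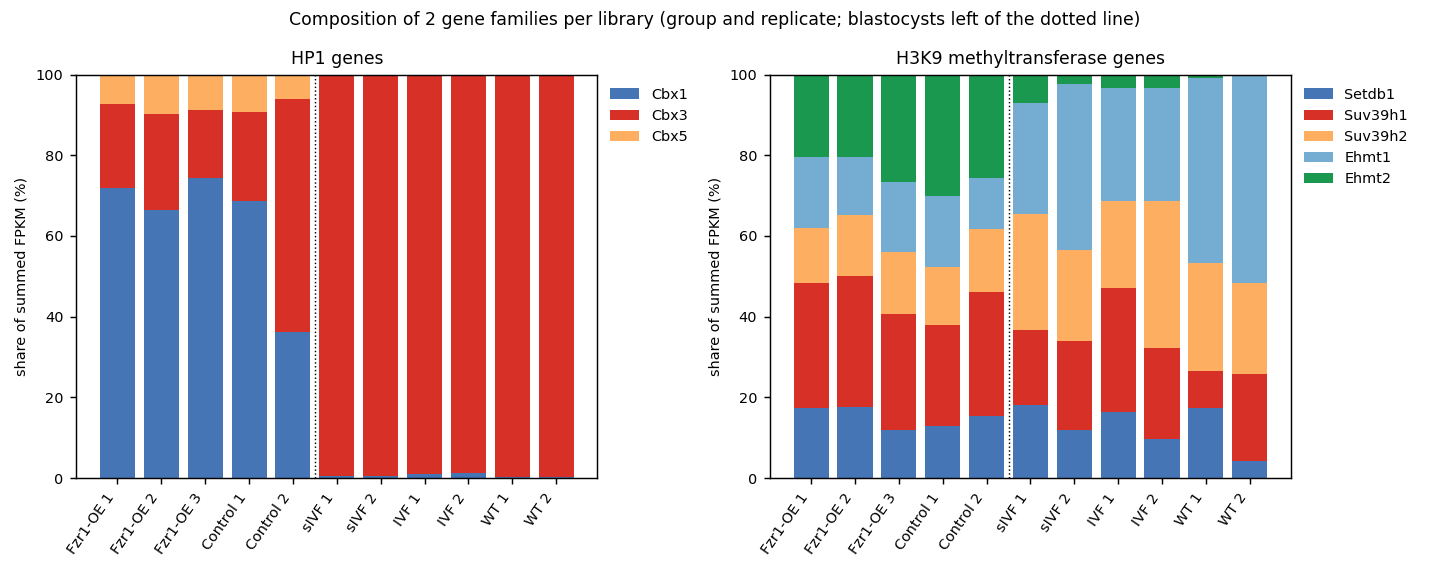
Share of each HP1 gene in the summed HP1 FPKM and of each methyltransferase in the summed methyltransferase FPKM (percent), stacked per library, in the order Fzr1-OE, Control, sIVF, IVF and WT. Cbx3 fills 98.5% to 99.7% of the HP1 bars of 2-cell embryos, and Ehmt2 20.4% to 30.2% of the methyltransferase bars of blastocysts.

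Ehmt2 and Ehmt1, the G9a and GLP subunits of a heteromeric enzyme, moved in opposite directions. Their loci on mm9 are chr17:35035437-35050995 (Ehmt2) and chr2:24646289-24775129 (Ehmt1). Ehmt2 had 8.75 and 7.95 FPKM in Control blastocysts, against 0.200 and 0.115 FPKM in WT 2-cell embryos. The WT values rest on 6 and 4 implied fragments, and the log2 fold change was 3.01 (SE 0.36, limma adjusted p = 1.08e-04). Ehmt2 passed the filter of a mean of 1 FPKM through libraries other than WT, so this difference is a description. Ehmt1 had 5.07 and 3.96 FPKM in Control blastocysts, against 11.001 and 20.1 FPKM in WT 2-cell embryos. Both Control libraries were below both WT libraries, at −1.54 on the log2 scale (SE 0.33, limma adjusted p = 0.00318). The ratio of Ehmt1 to Ehmt2 FPKM was 0.498 to 0.856 in the 5 blastocyst libraries and 3.85 to 175 in the 6 2-cell libraries. The transcript with the higher FPKM thus differed by stage in every library. The WT ratios of 55.1 and 175 rest on the 6 and 4 implied Ehmt2 fragments, and protein was not measured.

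Suv39h1 and Suv39h2, which encode the pericentromeric enzymes, did not pass the test. Their loci on mm9 are chrX:7638297-7651886 (Suv39h1) and chr2:3373087-3392258 (Suv39h2). Suv39h1 had 7.27 and 9.55 FPKM in Control blastocysts, against 2.18 and 8.41 FPKM in WT 2-cell embryos. The groups overlapped (log2 fold change 0.77, SE 0.44, limma adjusted p = 0.153), and the gene was called higher without WT replicate 2 (1.55, adjusted p = 0.00179). Suv39h2 had 4.14 and 4.79 FPKM in Control blastocysts, against 6.40 and 8.74 FPKM in WT 2-cell embryos. Its groups did not overlap, but the difference of −0.64 on the log2 scale (SE 0.39, limma adjusted p = 0.178) passed only under quantile normalization (−1.46, adjusted p = 0.0166) and upper-quartile scaling (−1.43, adjusted p = 0.0179). Suv39h1 exceeded Suv39h2 1.76- to 2.30-fold in all 5 blastocyst libraries, and the ratio was 0.341 to 1.42 in 2-cell libraries. The Suv39h2 locus overlaps that of Dclre1c, which had 4.99 to 7.11 FPKM in blastocysts and 0.00743 to 3.54 FPKM in 2-cell embryos.

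Setdb1 (mm9 chr3:95127447-95161124), the methyltransferase that Trim28 recruits, had 3.75 and 4.77 FPKM in Control blastocysts, against 4.16 and 1.67 FPKM in WT 2-cell embryos. The groups overlapped, and the log2 fold change was 0.50 (SE 0.38, limma adjusted p = 0.278). Without WT replicate 1 it was 0.97 (adjusted p = 0.04999). The neighbouring Cers2, whose locus overlaps that of Setdb1, had 66.7 to 73.7 FPKM in blastocysts and 2.64 to 14.3 FPKM in 2-cell embryos.

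Trim28 (mm9 chr7:13609501-13616381) had 65.4 and 62.7 FPKM in Control blastocysts, against 16.9 and 14.9 FPKM in WT 2-cell embryos. The groups lay apart, at 1.95 on the log2 scale (SE 0.22, limma adjusted p = 7.03e-05) and means that differed 4.04-fold. Atf7ip (mm9 chr6:136467372-136555900) had 9.04 and 9.45 FPKM in Control blastocysts, against 8.56 and 7.02 FPKM in WT 2-cell embryos. Its groups did not overlap, yet the difference of 0.23 on the log2 scale (SE 0.24) did not pass (limma adjusted p = 0.434).

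Since the median of all loci lay 0.88 higher in Control blastocysts, the changes were also taken relative to it. On that scale Cbx1 stood at 2.67, Ehmt2 at 2.13, Trim28 at 1.07, Cbx5 at 0.63, Suv39h1 at −0.11, Setdb1 at −0.38, Atf7ip at −0.66, Suv39h2 at −1.52, Ehmt1 at −2.42 and Cbx3 at −6.40. With the length trend removed, Setdb1 stood at 0.21, Suv39h1 at 0.075 and Atf7ip at 0.053 on this scale, so their sign depended on the setting. The other genes kept their sign, with Cbx1 at 1.92 and Cbx5 at 1.83. The calls for Cbx1, Cbx3, Ehmt1, Ehmt2 and Trim28 held under every alternative in which the gene had a value, with log2 fold changes of 2.02 to 3.72 for Cbx1, −6.65 to −4.50 for Cbx3, −2.37 to −1.13 for Ehmt1, 1.88 to 5.06 for Ehmt2 and 1.03 to 2.04 for Trim28. For Ehmt2, near 0 in WT 2-cell embryos, the call remains a description. Setdb1, Suv39h1 and Atf7ip turned negative under quantile normalization and upper-quartile scaling. Stage, embryo handling and any library batch cannot be told apart in this comparison.

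Across all 5 blastocyst libraries and all 6 2-cell libraries, 7 of the 10 genes had ranges that did not overlap, against 60.0% of all loci. Trim28 (48.5 to 65.4 FPKM in blastocysts, 8.09 to 26.8 FPKM in 2-cell embryos), Ehmt2, Cbx1 and Cbx5 were the 4 genes above. Suv39h2 (3.69 to 4.79 FPKM in blastocysts, 6.40 to 19.4 FPKM in 2-cell embryos), Ehmt1 and Cbx3 were the 3 below. The ranges of Setdb1, Suv39h1 and Atf7ip overlapped between stages. Ordered by mean level in blastocysts labelled Fzr1-OE, Cbx1 led, then Trim28, then Cbx3, with no overlap between neighbours. Cbx5, Atf7ip and Suv39h1 followed with overlapping neighbours, then Ehmt2, and Ehmt1, Setdb1 and Suv39h2 came last and overlapped. In Control blastocysts Cbx3 overlapped both Cbx1 and Trim28 at the top, and in all 3 2-cell groups Cbx3 came first and Ehmt2 last without overlap with their neighbours.

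**Figure D3:**
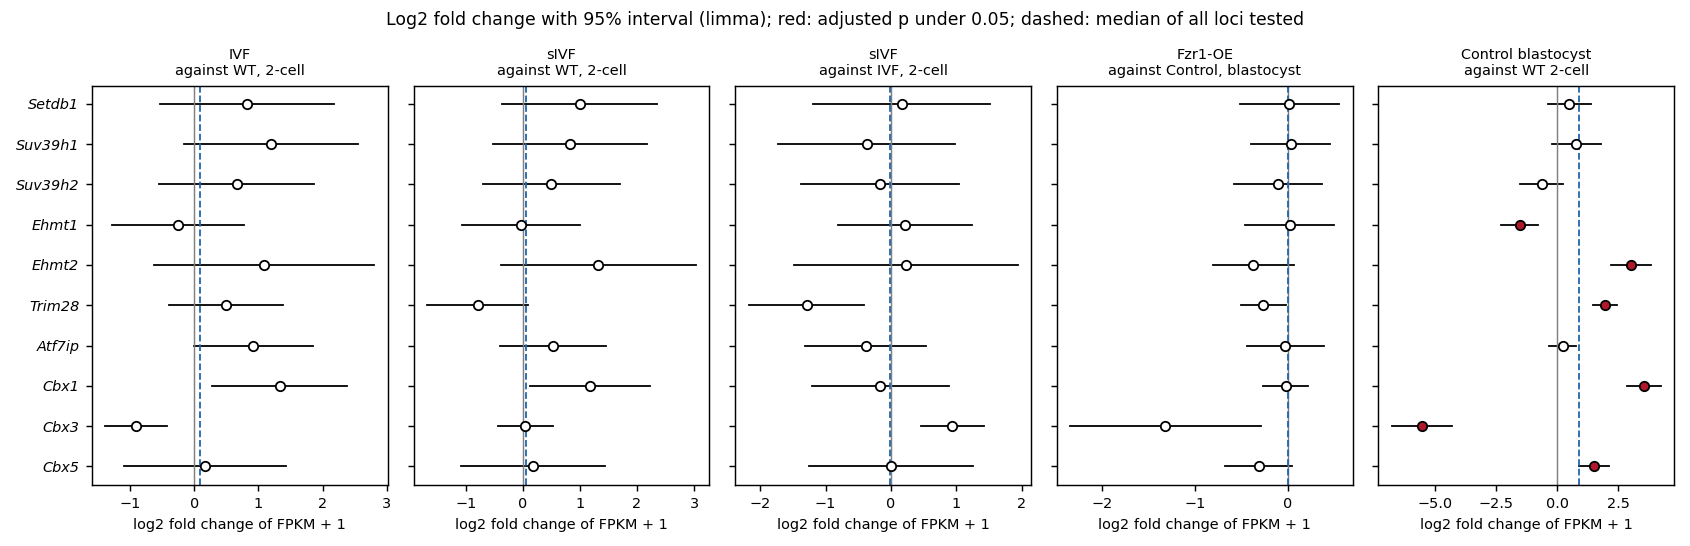
Log2 fold change of each of the 10 genes in each of the 5 comparisons, on log2(FPKM + 1), with 95% confidence intervals from limma; red points passed an adjusted p of 0.05 and the dashed line is the median of all loci tested. Red points are seen in the stage comparison alone, from −5.52 for Cbx3 to 3.55 for Cbx1.

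Among 2-cell embryos none of the 10 genes passed the test in any of 3 comparisons. Cbx3 and Cbx1 were among 7 genes that differed without overlap between IVF and WT embryos. Trim28 and Atf7ip separated all 3 groups without overlap, with Trim28 lowest in sIVF embryos. These comparisons ask whether the way embryos were produced goes with a different supply of this machinery. IVF against WT called 0 of the 10 genes with limma, against 0.0121% of 8246 loci, with 2 of the 10 and 1024 of all loci at an unadjusted p under 0.05. The groups did not overlap for 7 of the 10 genes, against 42.2% of all loci. Of the 10 genes 8 had a positive log2 fold change, against 4528 of the 8246 loci, with a median of 0.75 over the genes and 0.09 over all loci. Comparing sIVF with WT called 0 of the 10, against 0% of all loci, with 1 of the 10 and 585 of all loci at an unadjusted p under 0.05. There 6 of the 10 did not overlap, against 35.9% of all loci, and 8 of the 10 were positive, against 4481 of the 8246 loci. The median was 0.52 over the genes and 0.06 over all loci. Ehmt2, near 0 in WT, passed the filter through the sIVF and IVF libraries alone. It is in the counts and medians of both comparisons with WT, so its part in them is a description. Since both comparisons use the same WT libraries, their values are given side by side only. Comparing sIVF with IVF called 0 of the 10, against 0% of all loci, with 2 of the 10 and 974 of all loci at an unadjusted p under 0.05. There 4 of the 10 did not overlap, against 42.7% of all loci, and the median was −0.08 over the genes and −0.02 over all loci. Summed levels of 6 oocyte-derived markers, of which 0 were at 0 in every library, were 178 to 218 FPKM in sIVF embryos, 144 to 181 FPKM in IVF embryos, and 96.3 to 133 FPKM in WT embryos. The WT libraries were lowest for this sum, and for Gdf9 and Oosp1 singly, but Bmp15, Zp3, Zar1 and H1foo in WT overlapped another group. H1foo reached its highest value in WT, at 6.23 to 13.7 FPKM against 1.64 to 5.91 FPKM in sIVF embryos. The WT libraries were also lowest for Cbx1, Setdb1, Ehmt2 and Atf7ip, and the part of the oocyte-derived RNA in those differences was not tested.

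Cbx3, the HP1 gamma gene, had 2988 and 2989 FPKM in sIVF embryos, 1229 and 1968 FPKM in IVF embryos, and 2575 and 3272 FPKM in WT embryos. Both IVF libraries were below all sIVF and WT libraries, while sIVF lay inside the WT range. The log2 fold change was −0.90 for IVF against WT (SE 0.21, limma adjusted p = 0.151) and 0.94 for sIVF against IVF (SE 0.21, adjusted p = 0.150). For sIVF against WT it was 0.04 with a 95% interval of −0.44 to 0.52. None of these passed, although the interval of IVF against WT ran from −1.38 to −0.42 before adjustment over all loci.

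Cbx1, the HP1 beta gene, had 18.1 and 13.8 FPKM in sIVF embryos, 12.7 and 24.9 FPKM in IVF embryos, and 6.02 and 6.93 FPKM in WT embryos. The WT libraries were lowest, and sIVF and IVF overlapped. The log2 fold change was 1.34 for IVF against WT (SE 0.46, limma adjusted p = 0.304) and 1.17 for sIVF against WT (SE 0.46, adjusted p = 0.639). Cbx5 (HP1 alpha) had 4.01 and 5.15 FPKM in sIVF embryos, 3.72 and 5.53 FPKM in IVF embryos, and 3.59 and 4.28 FPKM in WT embryos. All 3 groups overlapped, and the 95% interval of sIVF against IVF was −1.26 to 1.26.

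Trim28, the co-repressor that recruits Setdb1, had 9.34 and 8.09 FPKM in sIVF embryos, 26.8 and 19.3 FPKM in IVF embryos, and 16.9 and 14.9 FPKM in WT embryos. The sIVF libraries were lowest, the WT libraries between and the IVF libraries highest, with no overlap. The log2 fold change was −1.29 for sIVF against IVF (SE 0.39, limma adjusted p = 0.251), −0.80 for sIVF against WT (SE 0.39, adjusted p = 0.739) and 0.50 for IVF against WT (SE 0.39, adjusted p = 0.671). Atf7ip, the Setdb1 partner, had 11.03 and 12.4 FPKM in sIVF embryos, 14.8 and 16.5 FPKM in IVF embryos, and 8.56 and 7.02 FPKM in WT embryos. Here too the groups did not overlap, with IVF highest and WT lowest, and IVF against WT gave 0.92 (SE 0.41, limma adjusted p = 0.406).

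Of the methyltransferases, Setdb1 and Suv39h1 varied 2.50-fold and 3.85-fold between the WT libraries. Setdb1 had 8.13 and 4.96 FPKM in sIVF embryos, 6.05 and 5.14 FPKM in IVF embryos, and 4.16 and 1.67 FPKM in WT embryos. Both WT libraries were below the rest (IVF against WT 0.83, SE 0.59, limma adjusted p = 0.642; sIVF against WT 0.99, SE 0.59, adjusted p = 0.776). Suv39h1 had 8.33 and 9.04 FPKM in sIVF embryos, 11.2 and 11.9 FPKM in IVF embryos, and 2.18 and 8.41 FPKM in WT embryos. IVF was highest without overlap (IVF against WT 1.20, SE 0.59, limma adjusted p = 0.468). Suv39h2 had 12.9 and 9.31 FPKM in sIVF embryos, 7.89 and 19.4 FPKM in IVF embryos, and 6.40 and 8.74 FPKM in WT embryos. The sIVF libraries were above the WT libraries and IVF overlapped both.

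The GLP gene Ehmt1 had 12.4 and 16.9 FPKM in sIVF embryos, 10.3 and 14.7 FPKM in IVF embryos, and 11.001 and 20.1 FPKM in WT embryos, and all groups overlapped. The G9a gene Ehmt2 had 3.21 and 0.987 FPKM in sIVF embryos, 1.20 and 1.77 FPKM in IVF embryos, and 0.200 and 0.115 FPKM in WT embryos. The WT libraries were lowest without overlap (sIVF against WT 1.32, SE 0.75, limma adjusted p = 0.764; IVF against WT 1.09, SE 0.75, adjusted p = 0.625). Ehmt2 passed the mean of 1 FPKM over the 6 libraries through the sIVF and IVF libraries alone, so this difference is a description. Fzr1, outside the set, had 0.239 and 2.00 FPKM in sIVF embryos, 7.69 and 10.1 FPKM in IVF embryos, and 0.117 and 0.233 FPKM in WT embryos.

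In blastocysts the libraries labelled Fzr1-OE and Control overlapped in 6 of the 10 genes, and Ehmt2, Trim28, Cbx3 and Cbx5 were lower in Fzr1-OE without overlap. None passed the test. With limma 0 of the 10 genes were called, against 4.21% of 9439 loci (2.29% higher and 1.92% lower), with 2 of the 10 and 1860 of all loci at an unadjusted p under 0.05. The 397 calls behind that share became 210 when replicate 2 of Fzr1-OE was left out and 185 when its replicate 3 was. Leaving out a library of Control gave 177 (replicate 1) or 87 (replicate 2). The groups did not overlap for 4 of the 10 genes, against 37.4% of all loci, and the median log2 fold change was −0.06 over the genes and 0.01 over all loci. Beside these values, summed trophectoderm markers were 3456 to 3538 FPKM in Fzr1-OE and 5526 to 5562 FPKM in Control, mostly Krt8 and Krt18. Krt8, Krt18, Eomes and Elf3 were lower in Fzr1-OE without overlap, while Cdx2 and Tfap2c overlapped. Summed inner cell markers were 94.9 to 109 FPKM in Fzr1-OE and 73.3 to 85.0 FPKM in Control. Nanog, Pou5f1 and Gata6 were higher in Fzr1-OE without overlap, while Sox2, Gata4 and Sox17 overlapped. Summed 2-cell markers were 16.9 to 21.5 FPKM in Fzr1-OE, from Obox6 and Tdpoz4, and 4.13 to 6.41 FPKM in Control, from Obox6. The part of cell make-up or of 2-cell marker RNA in any difference was not tested.

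Cbx3, which encodes HP1 gamma, had 26.6, 27.6 and 19.8 FPKM in blastocysts labelled Fzr1-OE, against 30.1 and 127 FPKM in Control blastocysts. All 3 Fzr1-OE libraries were below both Control libraries, by little from Control replicate 1 and by much from Control replicate 2. The difference of −1.32 on the log2 scale (SE 0.46, limma adjusted p = 0.151) was −0.29 without Control replicate 2 (adjusted p = 0.605) and −2.34 without Control replicate 1 (adjusted p = 0.00258), the lone setting in which any of the 10 genes was called. Control replicate 2 exceeded Control replicate 1 by 4.23-fold in Cbx3, and only 6 of 9439 loci had a larger difference in that direction, so 1 library decides the value.

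Trim28, the KRAB co-repressor, had 48.5, 58.2 and 53.6 FPKM in blastocysts labelled Fzr1-OE, against 65.4 and 62.7 FPKM in Control blastocysts. The Fzr1-OE libraries were lower without overlap, by −0.26 on the log2 scale (SE 0.11, limma adjusted p = 0.220). Ehmt2 had 5.60, 5.89 and 7.32 FPKM in blastocysts labelled Fzr1-OE, against 8.75 and 7.95 FPKM in Control blastocysts. This G9a gene was lower without overlap, by −0.37 (SE 0.19, limma adjusted p = 0.339). Cbx5 had 9.45, 11.4 and 10.2 FPKM in blastocysts labelled Fzr1-OE, against 12.8 and 13.2 FPKM in Control blastocysts. The HP1 alpha gene too was lower without overlap, by −0.31 (SE 0.16, limma adjusted p = 0.332).

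The other 6 genes overlapped between Fzr1-OE and Control. Cbx1, the HP1 beta gene, had 91.7, 77.5 and 86.7 FPKM in blastocysts labelled Fzr1-OE, against 93.5 and 79.7 FPKM in Control blastocysts, and the 95% interval of the log2 fold change was −0.26 to 0.22. Suv39h1 had 8.49, 9.39 and 7.91 FPKM in blastocysts labelled Fzr1-OE, against 7.27 and 9.55 FPKM in Control blastocysts, with an interval of −0.39 to 0.46. For both genes the Control range held all or all but 1 of the Fzr1-OE libraries. Suv39h2 had 3.69, 4.32 and 4.22 FPKM in blastocysts labelled Fzr1-OE, against 4.14 and 4.79 FPKM in Control blastocysts, with an interval of −0.58 to 0.37. Ehmt1 had 4.79, 4.17 and 4.78 FPKM in blastocysts labelled Fzr1-OE, against 5.07 and 3.96 FPKM in Control blastocysts, with an interval of −0.46 to 0.50. The groups overlapped for both genes. Setdb1 had 4.75, 5.06 and 3.31 FPKM in blastocysts labelled Fzr1-OE, against 3.75 and 4.77 FPKM in Control blastocysts, with an interval of −0.52 to 0.56. Atf7ip had 7.74, 10.7 and 9.04 FPKM in blastocysts labelled Fzr1-OE, against 9.04 and 9.45 FPKM in Control blastocysts, with an interval of −0.44 to 0.40. The summed methyltransferase level was 27.9 ± 0.81 FPKM in Fzr1-OE (SD, n = 3) and 30.0 ± 1.44 FPKM in Control blastocysts (SD, n = 2).

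Genes that work with this machinery were followed in 5 lists. Of the HUSH complex, which silences transposons with Setdb1, 3 of 4 genes were lower in Control blastocysts than in WT 2-cell embryos and 0 were higher, beside 19.6% of all loci lower and 45.8% higher in this comparison. Pphln1 averaged 24.8 ± 2.64 FPKM in Control blastocysts and 86.2 ± 2.31 FPKM in WT 2-cell embryos (SD, n = 2 each), with a log2 fold change of −1.76 (limma adjusted p = 4.73e-05). Fam208a, which encodes the TASOR subunit, gave −1.04 (adjusted p = 0.00379), and Morc2a, a chromatin ATPase that acts with HUSH, gave −2.08 (adjusted p = 0.00130). The 3 were called lower in each of 21 alternatives, and the list median of −1.40 stands beside the all-loci median of 0.88. Comparing IVF with WT, sIVF with WT, sIVF with IVF and Fzr1-OE with Control called 0 of these 4 genes.

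Setdb2 and Atf7ip2, paralogs of Setdb1 and Atf7ip, were lower in Control blastocysts. Atf7ip2 averaged 4.30 ± 0.32 FPKM in Control blastocysts and 68.8 ± 13.2 FPKM in WT 2-cell embryos (SD, n = 2 each), with a log2 fold change of −3.71 (limma adjusted p = 3.16e-06). Setdb2 averaged 4.78 ± 0.85 FPKM in Control blastocysts and 28.0 ± 3.05 FPKM in WT 2-cell embryos, with a log2 fold change of −2.33 (limma adjusted p = 1.17e-04). Of the 5 measured genes of this list 2 were thus lower, beside 19.6% of all loci, and 2 were higher, beside 45.8%, Ctbp1 (3.31) and Mbd1 (1.67), of which Mbd1 was called in 16 of 20 alternatives. Setdb1 averaged 4.26 ± 0.72 FPKM in Control blastocysts and 2.92 ± 1.77 FPKM in WT 2-cell embryos, so the mean of Setdb2 was above that of Setdb1 in both groups. In Control blastocysts the libraries overlapped, at 4.18 and 5.38 FPKM for Setdb2 and 3.75 and 4.77 FPKM for Setdb1. In blastocysts labelled Fzr1-OE the mean of Setdb2 (3.94 FPKM) was below that of Setdb1 (4.37 FPKM). Atf7ip2 was below Atf7ip in Control blastocysts and above it in WT 2-cell embryos, where Atf7ip averaged 7.79 ± 1.09 FPKM.

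Of 7 Trim28 recruiters and SUMO pathway genes, 5 were higher and 1 was lower in Control blastocysts, beside 45.8% of all loci higher and 19.6% lower, and the counts became 2 and 2 under quantile normalization and upper-quartile scaling. Pias4, a SUMO ligase, averaged 8.28 ± 0.36 FPKM in Control blastocysts and was listed at 0 in both WT 2-cell libraries. Zfp809, the KRAB zinc finger protein that brings Trim28 to proviruses, gave a log2 fold change of 2.56 (limma adjusted p = 0.00135), and Chd4, a chromatin remodelling ATPase of the NuRD complex, gave 1.41 (adjusted p = 0.00251). Chd4 was called in 18 of 20 alternatives, and not under quantile normalization (limma adjusted p = 0.172) or upper-quartile scaling (adjusted p = 0.0595). Sumo2 averaged 301 ± 9.61 FPKM in Control blastocysts and 984 ± 175 FPKM in WT 2-cell embryos (SD, n = 2 each), with a log2 fold change of −1.69 (limma adjusted p = 4.27e-06). Zfp809 was also the 1 gene of the 5 lists that was called between Fzr1-OE and Control, at 26.1, 24.9 and 21.9 FPKM in blastocysts labelled Fzr1-OE, against 15.5 and 11.6 FPKM in Control blastocysts. Its log2 fold change was 0.81 (SE 0.16, limma adjusted p = 0.0261), and it was called in 7 of 15 alternatives.

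Of 4 measured G9a and GLP partners, Hdac2, a histone deacetylase, was higher in Control blastocysts (1.98, limma adjusted p = 5.08e-04) and Zfp644, a zinc finger partner of G9a and GLP, was lower (−3.52, adjusted p = 9.13e-05), so that 2 of the 4 were called, against 65.4% of all loci. Of 13 measured heterochromatin partners 4 were higher and 2 lower, or 4 and 5 under quantile normalization and upper-quartile scaling. The 6 of 13 called are a smaller share than the 65.4% of all loci. Lmnb1 (2.54), encoding lamin B1, and Uhrf1 (1.73), which reads H3K9 methylation for maintenance DNA methylation, were higher, as was Suv420h2, which writes H4K20 methylation and was listed at 0 in both WT libraries. Lbr, the lamin B receptor that binds HP1, was lower at −2.14 (limma adjusted p = 3.45e-05), and Atrx was lower at −0.73 (adjusted p = 0.0160, called in 18 of 21 alternatives). Pias4, Suv420h2, Lmnb1 and Ctbp1, whose mean over the 6 2-cell libraries was 0.0844, 0.168, 0.719 and 0.551 FPKM, passed the filter on low values through the blastocysts, so that their counts as higher are descriptions. Over the 5 lists 0 genes were called in the 3 comparisons of 2-cell embryos with limma, with 6 of 29 genes at an unadjusted p under 0.05 for IVF against WT, beside 12.4% of all loci. For sIVF against WT it was 3 of 29, beside 7.09% of all loci, and for sIVF against IVF 5 of 29, beside 11.8%.

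**Figure D4:**
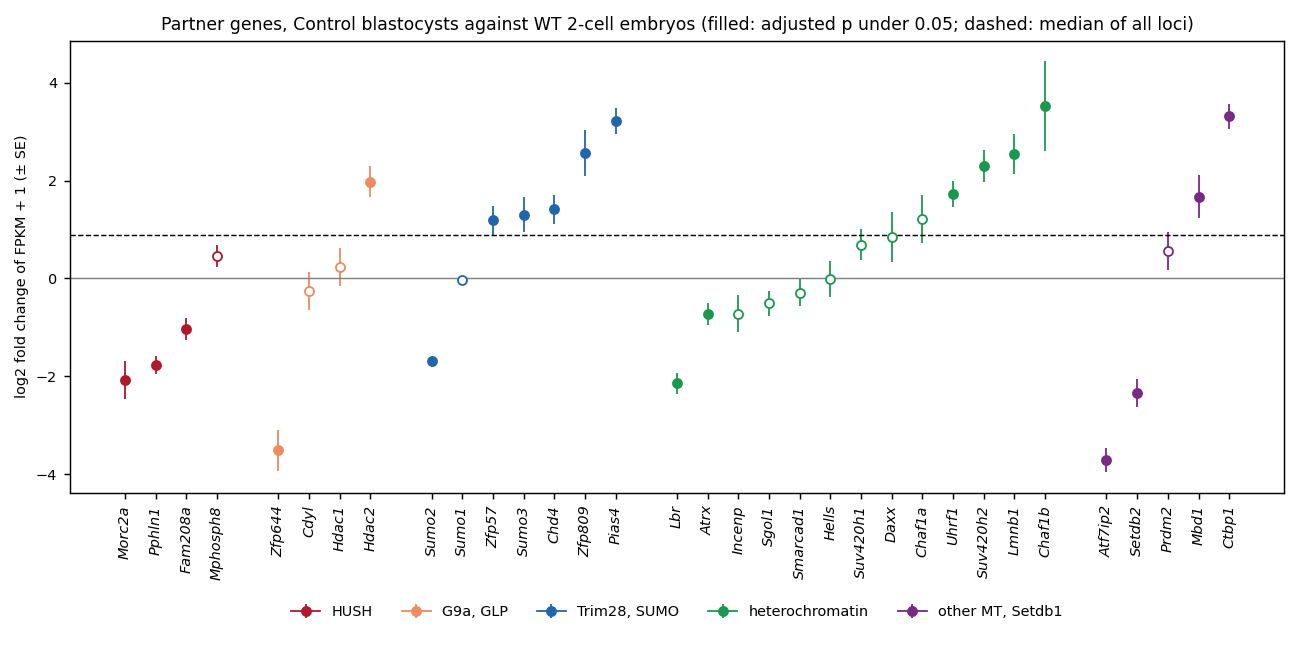
Log2 fold change between Control blastocysts and WT 2-cell embryos for the measured genes of the 5 lists, on log2(FPKM + 1) with bars of 1 SE; filled points passed a limma adjusted p of 0.05, and the dashed line marks the all-loci median of 0.88. The HUSH genes Pphln1, Fam208a and Morc2a lie below 0, and 5 of 7 Trim28 recruiters and SUMO genes lie above the line.

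Likeness of pattern was measured as the distance between profiles of the 5 group means of log2(FPKM + 1), each centred on its own mean, over 8955 loci. For Cbx3 the nearest were Nup98 (distance 0.70), Paip1 (0.72) and Zfp367 (0.83), and Nup98 averaged 2.34 FPKM in blastocysts labelled Fzr1-OE, 5.03 FPKM in Control blastocysts and 204 FPKM in WT 2-cell embryos. For Cbx1 the nearest were Tgif1 (0.17), Nudt9 (0.30) and Cog8 (0.30), and Tgif1 averaged 49.1 FPKM in blastocysts labelled Fzr1-OE, 44.9 FPKM in Control blastocysts and 7.24 FPKM in WT 2-cell embryos. The authors' deposited table of enriched gene ontology terms was searched for each assay of subcutaneous fat, and 0 of the 10 genes were listed among 449 symbols from RNA and 119 symbols from DNA methylation.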

How the data were processed

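RNA was measured in 5 blastocyst libraries and 6 2-cell libraries, from cDNA amplified over many cycles directly from cytoplasmic lysates, per the labels' protocols. The authors deposited FPKM per gene locus and a pair of confidence bounds around it, per the file headers. The submitters' processing notes give mm9 as the build and list, with no role for any, Trim Galore 0.6.4, HISAT2 2.1.0, Bowtie2 2.3.5, Bismark, Cuffdiff, DiffBind 2.12.0, Cufflinks 2.2.1 and deepTools 3.5.0; strand use is not given in the sources used here. The authors deposited gene ontology tables for fat with a p-value per term, per the file headers; these were searched for the 10 genes alone. FPKM divides by length and depth, so genes that take a large share of a library, and amplification, can shift other values.

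The fragments behind each value were inferred from the width of its deposited bounds and cover counting error only. Levels were tested with limma 3.58.1 (R 4.3.3) on log2(FPKM + 1), which understates changes of low genes, with Benjamini-Hochberg adjustment over all loci of a mean of at least 1 FPKM: 6 libraries for 2-cell comparisons, 5 for blastocysts and 11 for the stage comparison. All 10 genes passed that filter in each fit. The code was tested on simulated data. Alternatives were upper-quartile scaling, quantile normalization, a pseudocount of 0.1, no filter on low values or one of 5 FPKM, removal of the length trend, a replicate block, robust estimation, no intensity trend, other sets of libraries in the fit, and each library left out. All 10 genes are named; of each list of partners, those past the test are named, at most 3 per direction. One gene of these lists is not reported here. Every locus that overlaps one of the 10 is named. The 10 genes, the lists and the tests were chosen with earlier results of these data known. The H3K9me3 and DNA methylation libraries were not analysed here.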

Additional observations from a re-analysis of the deposited data

How the results depend on the processing

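Same-numbered libraries were not treated as pairs: the correlation of their deviations from group means was 0.0739 for IVF and WT, −0.00313 for sIVF and WT, −0.00146 for sIVF and IVF, and −0.039 and 0.0269 for Fzr1-OE and Control. With a replicate block the count of genes called was 0 of 10 in each 2-cell comparison and 0 of 10 between Fzr1-OE and Control, where Ehmt1 turned to −0.0040. The block reduced the calls over all loci between Fzr1-OE and Control to 47, against 397 without it; they were 30 with no filter, 41 with no intensity trend, 9 with all 11 libraries in the fit and 87 to 350 with single libraries left out.

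Log2 fold changes near 0 changed sign. For sIVF against WT, Cbx3 was −0.14 under quantile normalization, −0.0095 under upper-quartile scaling and −0.053 with the length trend removed. For sIVF against IVF, Cbx5 was 0.00065 with a pseudocount of 0.1, 0.089 under quantile normalization and 0.033 with the length trend removed. In the stage comparison, Setdb1, Suv39h1 and Atf7ip were −0.38, −0.031 and −0.58 under quantile normalization, and −0.22, −0.035 and −0.62 under upper-quartile scaling. The all-loci median was −0.02 under quantile normalization, 0.16 under upper-quartile scaling and 0.11 with the length trend removed, against 0.88. The cause was not tested.

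With single libraries left out, IVF against WT ran from −0.66 to 0.15 for Ehmt1 and from −0.060 to 0.41 for Cbx5. For sIVF against WT the range was −0.44 to 0.37 for Ehmt1 and −0.13 to 0.21 for Cbx3. For sIVF against IVF it was −0.14 to 0.47 for Setdb1, −0.76 to 0.43 for Suv39h2, −0.023 to 0.45 for Ehmt1, −0.62 to 0.30 for Cbx1 and −0.24 to 0.23 for Cbx5. For Fzr1-OE against Control it was −0.12 to 0.17 for Setdb1, −0.14 to 0.21 for Suv39h1, −0.12 to 0.17 for Ehmt1, −0.13 to 0.093 for Cbx1 and −0.13 to 0.082 for Atf7ip, and 0 to 1 of the 10 genes were called, the 1 being Cbx3 without Control replicate 1. In the stage comparison Suv39h1 ran from −0.011 to 1.55. Ehmt2 rests on 4 and 6 implied fragments in WT 2-cell embryos and has no value with the filter of 5 FPKM in 2-cell embryos. Where 1 library remained in a group, it was assumed to vary like the others.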
